A study of Mus musculus with 2 samples.

Results

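Expression of 9 genes of transforming growth factor beta (TGF-β) signalling was described by cell class in mouse tumours: the ligands Tgfb1, Tgfb2 and Tgfb3, the receptors Tgfbr1, Tgfbr2 and Tgfbr3, the signal carriers Smad3 and Smad7, and the induced matrix protein gene Tgfbi. The genes were taken by symbol, and all 9 were found in the deposited matrix. Single-cell 5′ RNA libraries (10x Chromium) had been made from tumours that grew from MC38, a mouse colon adenocarcinoma cell line, on the back of C57BL/6 mice. In the DFMO group the animals received by gavage difluoromethylornithine, an inhibitor of ornithine decarboxylase and so of polyamine synthesis, and in the water group they received water, in both for 14 days from day 7 of tumour growth. The labels give the gavage once as daily and elsewhere as 2 times a day. Each group was 1 library of cells mixed from 4 mice, so there was no replicate library, no test between the groups was possible, and the intervals below (95%) cover counting error only. The labels state neither sex nor age of the animals, and a Ficoll step had been used to obtain immune cells.

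TGF-β ligands are made in a latent form, held by binding proteins in the matrix or on the cell surface, and have to be released before they act. The released ligand binds TGFBR2, which recruits and phosphorylates TGFBR1. TGFBR1 then phosphorylates SMAD2 and SMAD3, which enter the nucleus with SMAD4. TGFBR3 (betaglycan) presents ligand to the signalling receptors, SMAD7 is an inhibitor induced by the pathway, and Tgfbi encodes a matrix protein named for its induction by TGF-β. In tumours the pathway is known for restraining T cells and NK cells and for driving fibroblasts to produce matrix.

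Promoter sequence of 6 of the 9 genes was in the RefSeq table used (build GRCm38.p6). The 100 bases before the annotated start, on the coding strand, are shown with RefSeq's starts, which can differ from the GENCODE gene ends given further on, for 4 genes picked after their values were seen: the ligand gene read in every large class, the ligand gene closest to the detection limit, the ligand-binding receptor and the gene that marked macrophages. The windows are chr7:25686902-25687001 (Tgfb1, plus strand), chr1:186705990-186706089 (Tgfb2, minus strand), chr9:116175364-116175463 (Tgfbr2, minus strand) and chr13:56609486-56609585 (Tgfbi, plus strand). Capitals mark CAGAC (the Smad box), GAGGAA (a core bound by ETS factors) or TATAAA (the TATA box), each searched on both strands, so that the Smad box can also read GTCTG.
Tgfb1: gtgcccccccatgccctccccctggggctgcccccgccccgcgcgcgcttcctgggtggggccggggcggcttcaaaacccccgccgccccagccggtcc
Tgfb2: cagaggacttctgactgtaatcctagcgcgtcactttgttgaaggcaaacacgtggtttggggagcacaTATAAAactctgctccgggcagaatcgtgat
Tgfbr2: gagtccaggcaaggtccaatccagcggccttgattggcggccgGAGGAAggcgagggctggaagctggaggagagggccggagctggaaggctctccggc
Tgfbi: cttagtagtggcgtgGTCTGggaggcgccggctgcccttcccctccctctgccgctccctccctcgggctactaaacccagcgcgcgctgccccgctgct

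The full window of 250 bases before the start had a GC content of 75.2% in Tgfb1 and of 53.6% in Tgfb2. The GC content was 74.8% in Tgfbr1, 69.2% in Smad3, 62.4% in Tgfbi and 58.4% in Tgfbr2. A link between GC content and expression was not tested. A TATAAA stood in the window of Tgfb2 and in those of 13% of the 27025 genes with a promoter in the table. The Smad box was found 2 times in Tgfb2, 2 times in Tgfbi, 1 time in Tgfbr2 and 0 times in Tgfb1, Tgfbr1 and Smad3, and 42.1% of all promoters held it. GAGGAA was found 1 time each in Tgfb2 and Tgfbr2, against 23.1% of all promoters. These matches describe letters in the window and show no binding.

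The DFMO library held 4472 cells and 23588037 UMIs (unique molecular identifiers, each standing for 1 captured transcript), and the water library held 6248 cells and 59748244 UMIs. After removal of 51 and 97 called doublets and 1 cell with few genes, 4421 DFMO cells and 6150 water cells remained, with a median of 2208 and 6334.5 UMIs per cell. Clusters were named from marker genes, and the 9 genes took no part in the clustering. The classes with at least 100 cells in both libraries were CD8 T cell-like (905 DFMO and 922 water cells), regulatory T cell-like (176 and 198), NK cell-like (207 and 358), monocyte and macrophage-like (190 and 1235), fibroblast-like (137 and 1005) and a group of 3 clusters with almost no Ptprc (CD45), called Ptprc-low (550 and 1905). B cell-like cells made up 32.8% of the DFMO cells and 0.911% of the water cells (1452 and 56 cells), and a CD4 T cell-like cluster led by Lef1 and Tcf7 numbered 627 DFMO and 39 water cells. The labels call the material immune cells, yet Ptprc stood at 2.49 DFMO and 2.72 water CPM (UMIs per 1000000 UMIs of the class) in the fibroblast-like cells and at 3.49 and 1.54 CPM in the Ptprc-low cells. The summed level of 4 Y-linked genes was 0.997 DFMO and 1.70 water CPM in the fibroblast-like cells, against 194 DFMO and 124 water CPM in the CD8 T cell-like cells. In the fibroblast-like cells the epithelial markers Epcam, Krt8, Krt18 and Krt19 stood at 11.5, 8.83, 17.9 and 19.9 CPM in water. In DFMO Krt8 stood at 0.997 CPM and the others at 0. The highest of these values in Ptprc-low cells was 0.320 CPM (Krt8 in water). The name fibroblast-like rests on 5 of 8 fibroblast markers, and Ptprc-low cells held several of the 8 as well. Col3a1, Dcn and Pdpn stood at 1945, 1406 and 189 DFMO CPM and 1635, 1327 and 173 water CPM in Ptprc-low cells. In fibroblast-like cells they stood at 6774, 4328 and 192 DFMO CPM and 7573, 4696 and 228 water CPM. Whether the fibroblast-like cells came from the host or the tumour line was not tested, nor whether their make-up was alike in both libraries. Of all barcodes, 37 occurred in both libraries.

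**Figure D1:**
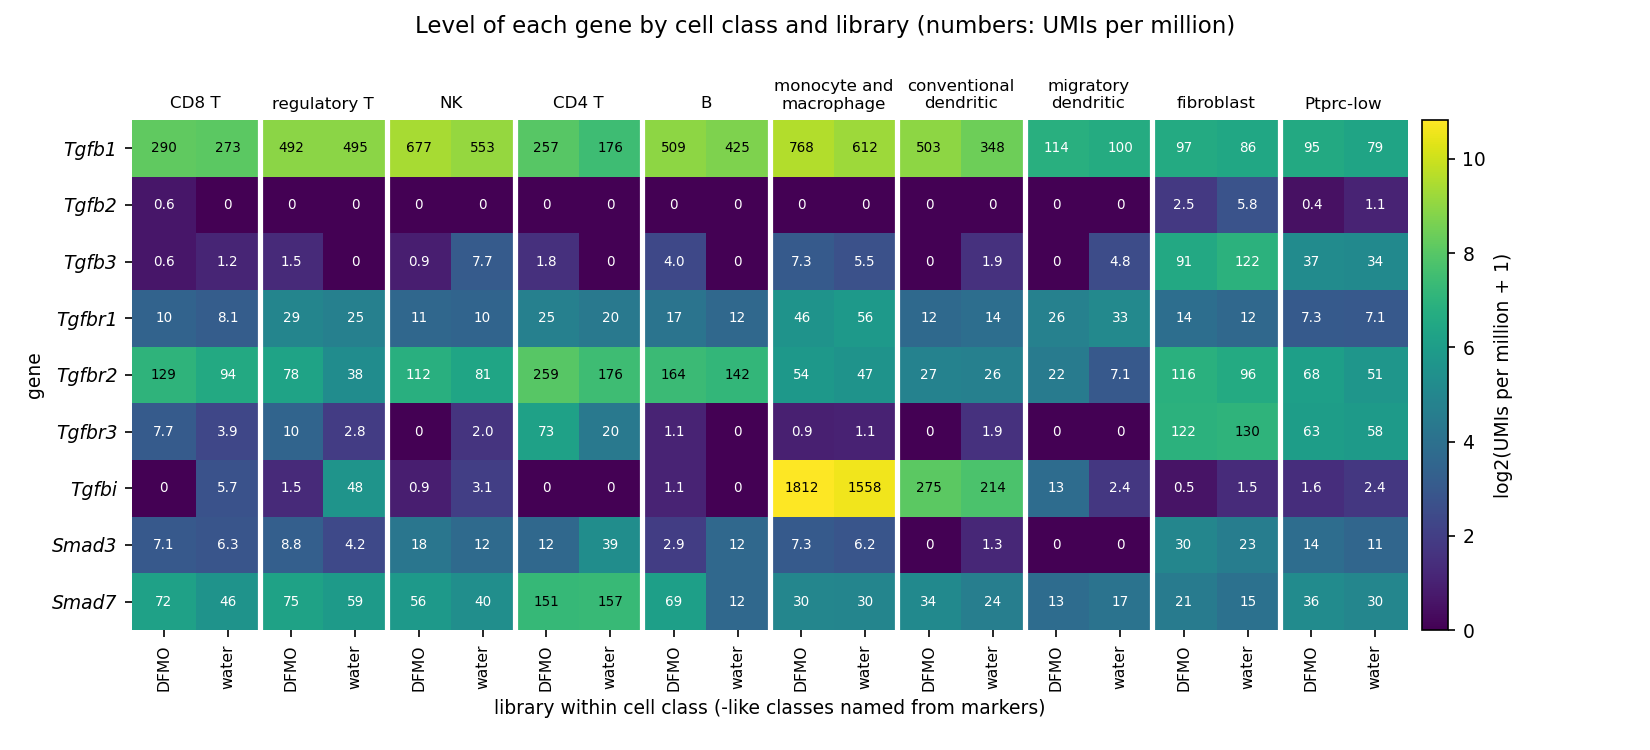
Level of each of the 9 genes (rows) in 10 cell classes, with the DFMO library left of the water library. Colour gives log2(CPM + 1) and the printed numbers are CPM. Tgfb1 was read in every class shown, Tgfb3 and Tgfbr3 mainly in fibroblast-like and Ptprc-low cells, and Tgfbi in monocyte and macrophage-like cells.

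Tgfb1 (chr7:25687002-25705077, plus strand) encodes the main TGF-β ligand of leukocytes. It reached 768 CPM in DFMO and 612 CPM in water monocyte and macrophage-like cells, the highest of the classes with at least 100 cells in both libraries. NK cell-like cells followed with 677 CPM in DFMO and 553 CPM in water, and regulatory T cell-like cells held 492 and 495 CPM. B cell-like cells stood near the regulatory T cell-like level, with 509 CPM in DFMO (interval 483 to 536) and 425 CPM in water (298 to 588). CD8 T cell-like cells held 290 CPM in DFMO and 273 CPM in water, and CD4 T cell-like cells 257 and 176 CPM (283 and 9 UMIs). Fibroblast-like and Ptprc-low cells had the least among these classes, at 97.2 and 94.8 CPM in DFMO and 86.2 and 79.0 CPM in water, and the intervals of these 2 classes overlapped within each library. The order from monocyte and macrophage-like to NK, regulatory T, CD8 T and Ptprc-poor cells was the same in both libraries, but the intervals of the monocytes and macrophages and the NK cell-like cells overlapped in DFMO, and those of the NK and regulatory T cell-like cells in water.

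The cells that carried the Tgfb1 message differed between the libraries. In the DFMO library the B cell-like cells held 22.4% of all Tgfb1 UMIs, CD8 T cell-like cells 15.8%, Ptprc-low cells 14.9%, monocyte and macrophage-like cells 13.6% and NK cell-like cells 12.6%. In the water library monocyte and macrophage-like cells held 33.7%, Ptprc-low cells 24.1%, NK cell-like cells 10.5%, fibroblast-like cells 9.91%, CD8 T cell-like cells 8.87% and B cell-like cells 0.352%. No single class held most of the Tgfb1 message in either library.

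**Figure D2:**
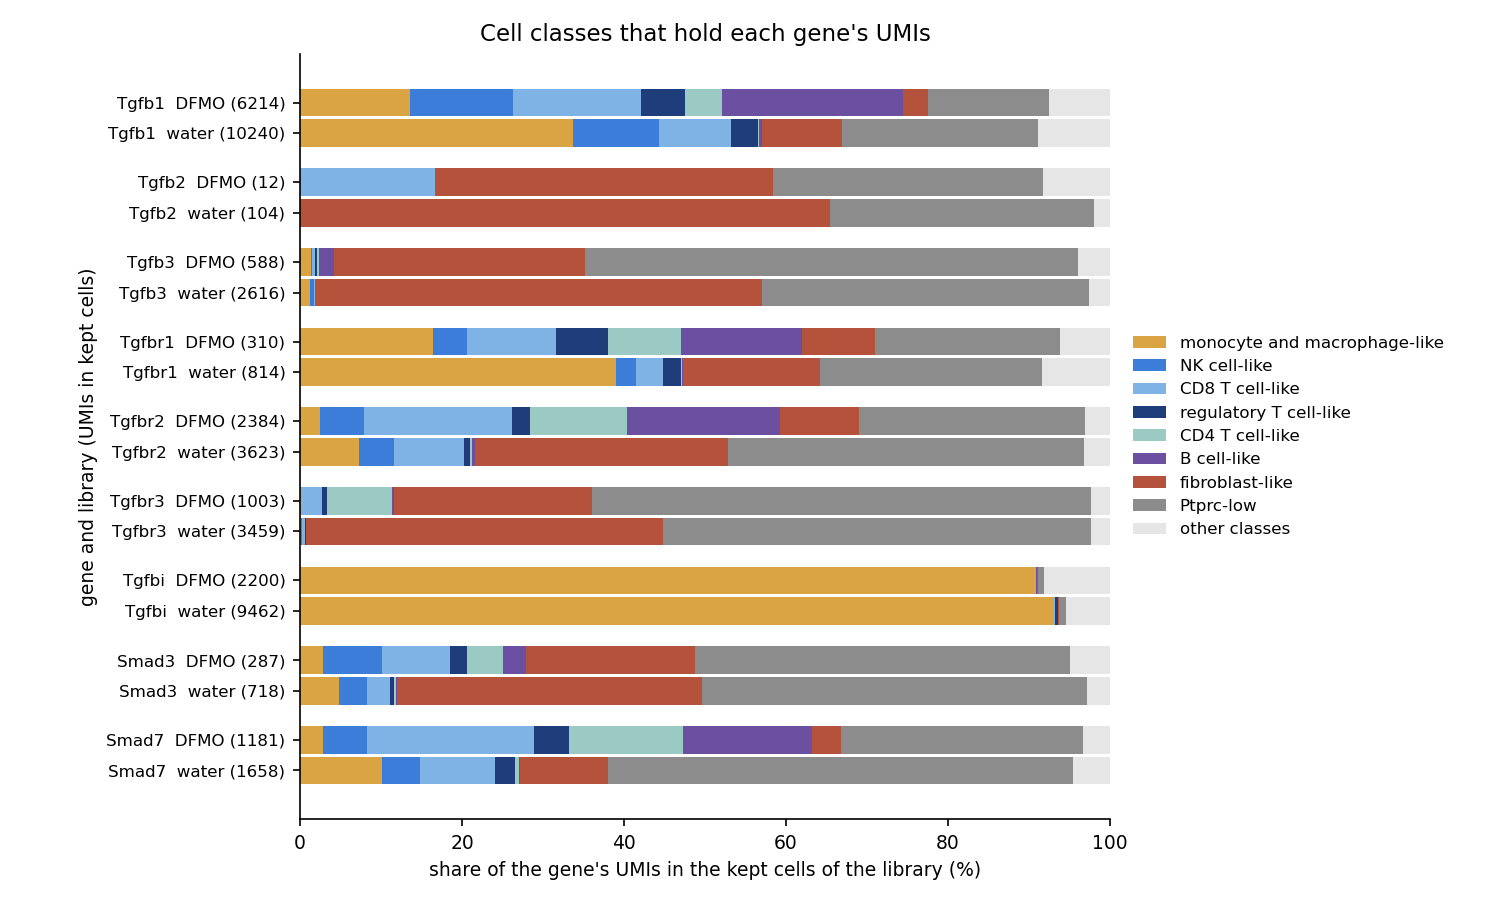
Share of each gene's UMIs (x axis, percent of the gene's UMIs in the kept cells) that fell in each cell class, with the DFMO bar above the water bar and the number of UMIs in brackets. For Tgfb1 the largest piece was B cell-like in DFMO (22.4%) and monocyte and macrophage-like in water (33.7%), whereas for Tgfbi 1 class held 90.8% in DFMO and 92.9% in water.

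Within classes the Tgfb1 level was modestly higher in the DFMO library in several classes. The log2 ratio of DFMO over water was 0.33 in monocyte and macrophage-like cells (interval 0.22 to 0.44), from 847 DFMO and 3455 water UMIs. It was 0.29 in NK cell-like cells (0.16 to 0.43), from 786 and 1080 UMIs, and 0.26 in Ptprc-low cells (0.15 to 0.37), from 923 and 2469 UMIs. In fibroblast-like cells it was 0.17 and in CD8 T cell-like cells 0.09, with intervals that included 0, and for regulatory T cell-like cells it was -0.01 (-0.23 to 0.21). Without cluster 9, a CD8 T cell-like cluster led by Dapl1 with 450 DFMO and 44 water cells, the CD8 value was 0.25 (0.11 to 0.39), a setting added after the data were seen. At least 19.7% of all measured genes had a ratio as high as that of Tgfb1 in each of these 6 classes.

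The class of monocytes and macrophages held 3 clusters with unlike levels of Tgfb1. In cluster 5, led by Ly6i and Slfn4, it was 1009 CPM in DFMO and 724 CPM in water, and in cluster 11, led by Hp and Ace, 1006 and 880 CPM. Cluster 10, led by C1q genes and Pf4, had 262 CPM in DFMO and 300 CPM in water. The log2 ratio was 0.48 (0.31 to 0.64) in cluster 5, 0.19 (0.03 to 0.36) in cluster 11 and -0.19 (-0.52 to 0.13) in cluster 10, so the higher level of the class in DFMO was not seen in the C1q cluster. Cluster 5 held 64 DFMO and 524 water cells, cluster 11 held 65 and 325, and cluster 10 held 61 and 386. Whether the clusters differed from each other in their ratio was not tested.

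Tgfb3 (chr12:86056745-86079041, minus strand) encodes a ligand made chiefly by stromal cells, and its UMIs came almost wholly from the Ptprc-poor part of the material. Fibroblast-like cells held 90.7 CPM in DFMO (182 UMIs) and 122 CPM in water (1441 UMIs), and Ptprc-low cells 36.8 CPM in DFMO (358 UMIs) and 33.8 CPM in water (1057 UMIs). These classes together held most of its UMIs: in DFMO 31.0% lay in fibroblast-like and 60.9% in Ptprc-low cells, and in water 55.1% and 40.4%. The log2 ratio was -0.43 in fibroblast-like cells (-0.66 to -0.21) and 0.12 in Ptprc-low cells (-0.06 to 0.29). In the fibroblast-like class 88.9% of genes had a ratio at least as high. At a finer clustering this class split into a part in which Tgfb3 was itself a leading gene, with 99.7 DFMO and 130 water CPM, and a part led by Mfap4 and Clec3b, with 86.8 and 117 CPM. The lower DFMO value appeared in both, at -0.38 (-0.65 to -0.12) and -0.44 (-0.87 to -0.03).

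Leukocyte classes held little Tgfb3. CD8 T cell-like cells had 2 DFMO and 4 water UMIs, and B cell-like cells had 11 and 0. The C1q macrophage cluster was the leukocyte cluster of its class with the most, at 22.6 CPM in DFMO (8 UMIs) and 13 CPM in water (27 UMIs). NK cell-like cells had 1 DFMO and 15 water UMIs, and 1 cell gave 40% of the water UMIs. The 8 fibroblast markers summed to 5.17 DFMO and 49.7 water CPM in the same NK cell-like cells, with Col1a1, Col1a2, Lum, Pdgfra and Postn at 0 in DFMO and Col1a2, Lum and Postn at 0 in water, and their part in these UMIs was not tested. The gene lies partly within Ttll5 on the opposite strand, whose reads cannot be told apart if strand was not used in counting.

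Tgfb2 (chr1:186622792-186705989, minus strand), a ligand of stromal and epithelial cells, was close to the limit of detection. The whole DFMO library held 12 UMIs (0.513 CPM) and the water library 104 UMIs (1.78 CPM). Fibroblast-like cells accounted for 5 DFMO and 68 water UMIs, at 2.49 and 5.77 CPM, and Ptprc-low cells for 4 and 34 UMIs, at 0.411 and 1.09 CPM. Regulatory T, NK, B, CD4 T and monocyte and macrophage-like cells held 0 UMIs in both libraries, which in the monocytes and macrophages allows up to 2.72 CPM in DFMO and 0.531 CPM in water (3 UMIs). The log2 ratio was -1.21 in fibroblast-like cells (-2.88 to 0.08) and -1.41 in Ptprc-low cells (-3.36 to 0.08), and both intervals included 0.

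Of the receptors, Tgfbr2 (chr9:116084293-116175360, minus strand), the ligand-binding kinase, was highest in the CD4 T cell-like and B cell-like classes. The CD4 T cell-like cluster had 259 CPM in DFMO (285 UMIs) and 176 CPM in water (9 UMIs), and B cell-like cells 164 and 142 CPM (449 and 12 UMIs). CD8 T cell-like cells held 129 CPM in DFMO and 94.1 CPM in water, fibroblast-like cells 116 and 96.0 CPM, and NK cell-like cells 112 and 80.9 CPM. These 3 classes overlapped in their intervals within each library. Lower levels were found in Ptprc-low cells with 68.3 DFMO and 51.0 water CPM and in monocyte and macrophage-like cells with 53.5 and 46.8 CPM. Regulatory T cell-like cells had 77.5 CPM in DFMO and 37.9 CPM in water, so their place in the order differed between the libraries.

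Tgfbr2 was higher in the DFMO library in all 6 large classes, with intervals above 0 in 5 of them, but not after every cell was thinned to 1000 UMIs. Thinning gave log2 ratios of 0.07 in NK cell-like and in Ptprc-low cells and of -1.07 in monocyte and macrophage-like cells, where 4 of 184 DFMO and 63 of 1209 water cells then had a UMI. Without thinning, in regulatory T cell-like cells the log2 ratio was 1.03 (0.34 to 1.76), from 53 DFMO and 27 water UMIs. It was 0.47 in NK cell-like cells (0.12 to 0.81), 0.45 in CD8 T cell-like cells (0.24 to 0.67), 0.42 in Ptprc-low cells (0.29 to 0.55) and 0.27 in fibroblast-like cells (0.06 to 0.47). In monocyte and macrophage-like cells it was 0.19 (-0.24 to 0.61), and 0.19 (-0.05 to 0.44) in the CD8 T cell-like class once cluster 9 was left out. The 2-fold difference in regulatory T cell-like cells did not hold under 6 other settings, which gave ratios between 0.58 and 0.93. The share of all measured genes with a ratio at least as high was 4.35% in regulatory T cell-like cells, 9.08% in Ptprc-low cells, 12% in NK cell-like cells and 16.4% in CD8 T cell-like cells.

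Genes outside the pathway, chosen after the values were seen, also had higher DFMO values in the leukocyte classes. Ptprc itself had a log2 ratio of 0.42 in regulatory T cell-like cells, 0.22 in NK cell-like cells, 0.37 in CD8 T cell-like cells and 0.44 in monocyte and macrophage-like cells. The sum of the 4 Y-linked genes had ratios of 0.32, 0.51, 0.65 and 0.39 in the same classes. In fibroblast-like cells, where Tgfbr2 was higher, Ptprc had 5 DFMO and 32 water UMIs and a ratio of -0.12 (-1.84 to 1.25). The 8 B cell markers, which summed to 16908 DFMO and 16558 water CPM in B cell-like cells, summed to 136 DFMO and 26.7 water CPM in the regulatory T cell-like cells and to 62.3 and 8.12 CPM in the CD8 T cell-like cells. Among the B cell markers at 0 in the regulatory T cell-like cells were Pax5 in DFMO, and Ms4a1, Fcmr, Pax5 and Bank1 in water. The part of these shifts in the Tgfbr2 values was not tested.

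Among regulatory T cell-like cells, 26.7% in DFMO and 13.1% in water had a Tgfbr2 UMI. After every cell was thinned to 1000 UMIs the shares were 8.0% in DFMO and 4.79% in water. In CD8 T cell-like cells the shares were 36.0% in DFMO and 27.9% in water, and 12.9% and 11.2% after thinning. The median depth in regulatory T cell-like cells was 2969.5 UMIs in DFMO and 2583.5 in water. No class is known to lack Tgfbr2, so migratory dendritic cell-like cells, which held the least, serve as the low end, with a UMI in 8.82% of DFMO and 3.95% of water cells at median depths of 5099 and 3925 UMIs.

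**Figure D3:**
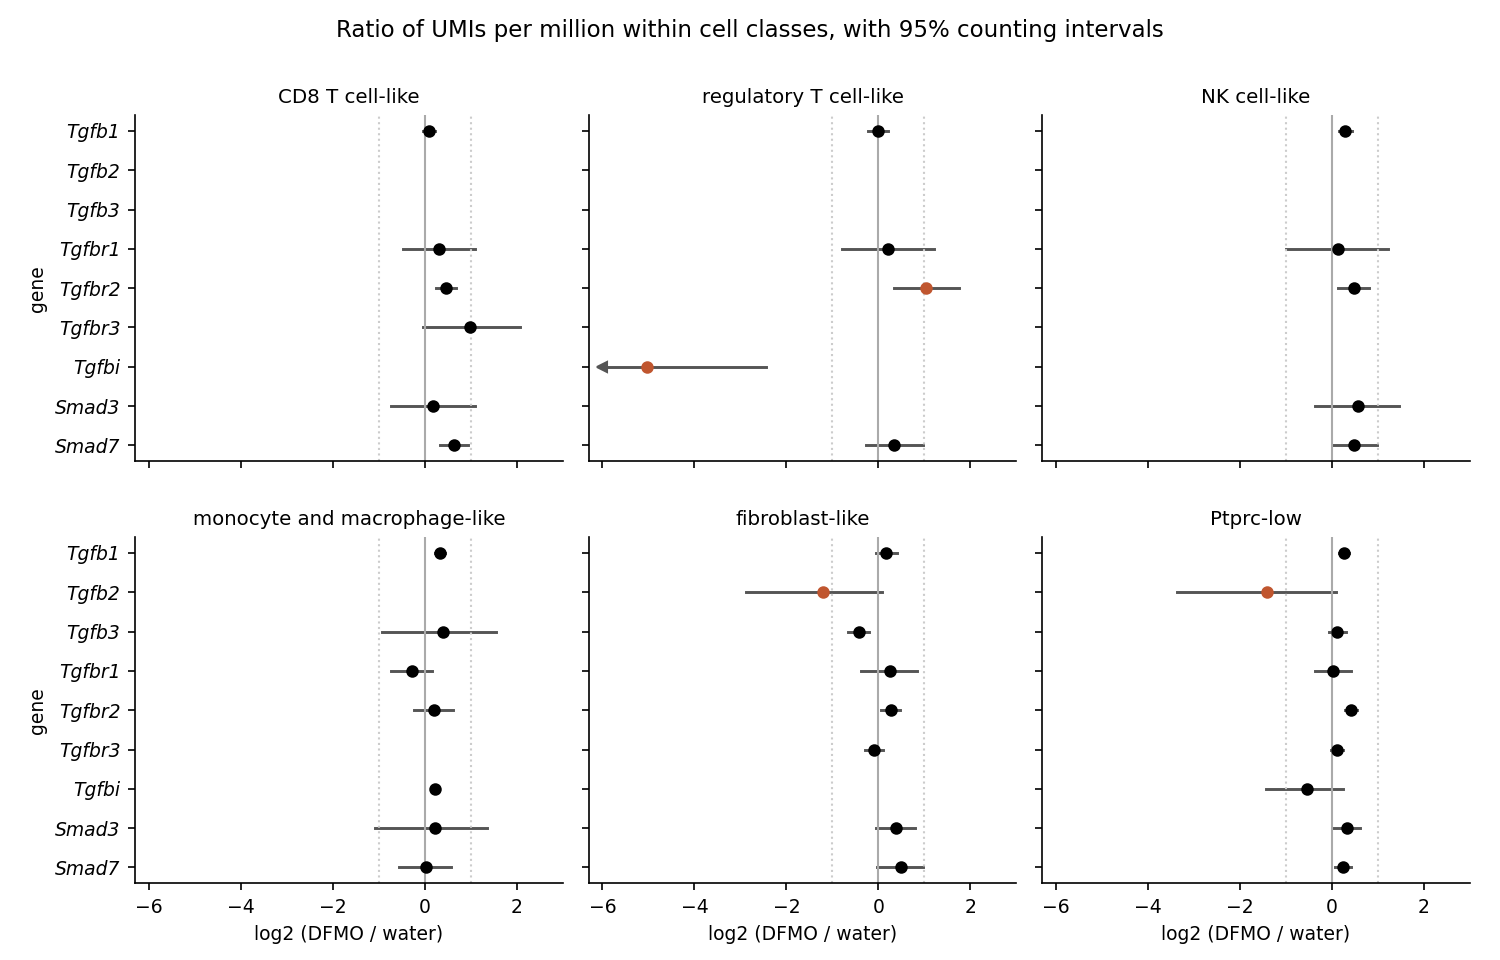
Log2 ratio of CPM in DFMO over water (x axis) for each gene with at least 30 UMIs over both libraries, in the 6 large classes. Points are ratios, bars are 95% counting intervals, dotted lines mark 2-fold, coloured points lie past it and the arrow marks an interval that runs beyond the axis. Counts are not thinned: Tgfbr2 lies above 0 in all 6 panels here, but at 0.07 in NK cell-like and Ptprc-low cells and -1.07 in monocyte and macrophage-like cells after thinning to 1000 UMIs, and Tgfbi in regulatory T cell-like cells lies at -5.03.

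Tgfbr1 (chr4:47353222-47414931, plus strand), the kinase that phosphorylates SMAD2 and SMAD3, was highest in monocyte and macrophage-like cells among the 6 large classes. They held 46.3 CPM in DFMO and 56.3 CPM in water, and regulatory T cell-like cells followed with 29.3 and 25.3 CPM. NK cell-like, CD8 T cell-like, fibroblast-like and Ptprc-low cells lay between 7.29 and 14 CPM in DFMO and between 7.14 and 11.7 CPM in water. Every interval of a ratio in the 6 classes included 0. Within the macrophages the C1q cluster held the most, with 90.3 CPM in DFMO and 77.4 CPM in water. The Ly6i cluster 5 held 24.2 CPM in DFMO (9 UMIs) and 59.0 CPM in water (116 UMIs), a log2 ratio of -1.28 (-2.45 to -0.31) in a cluster with 64 DFMO cells.

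**Figure D4:**
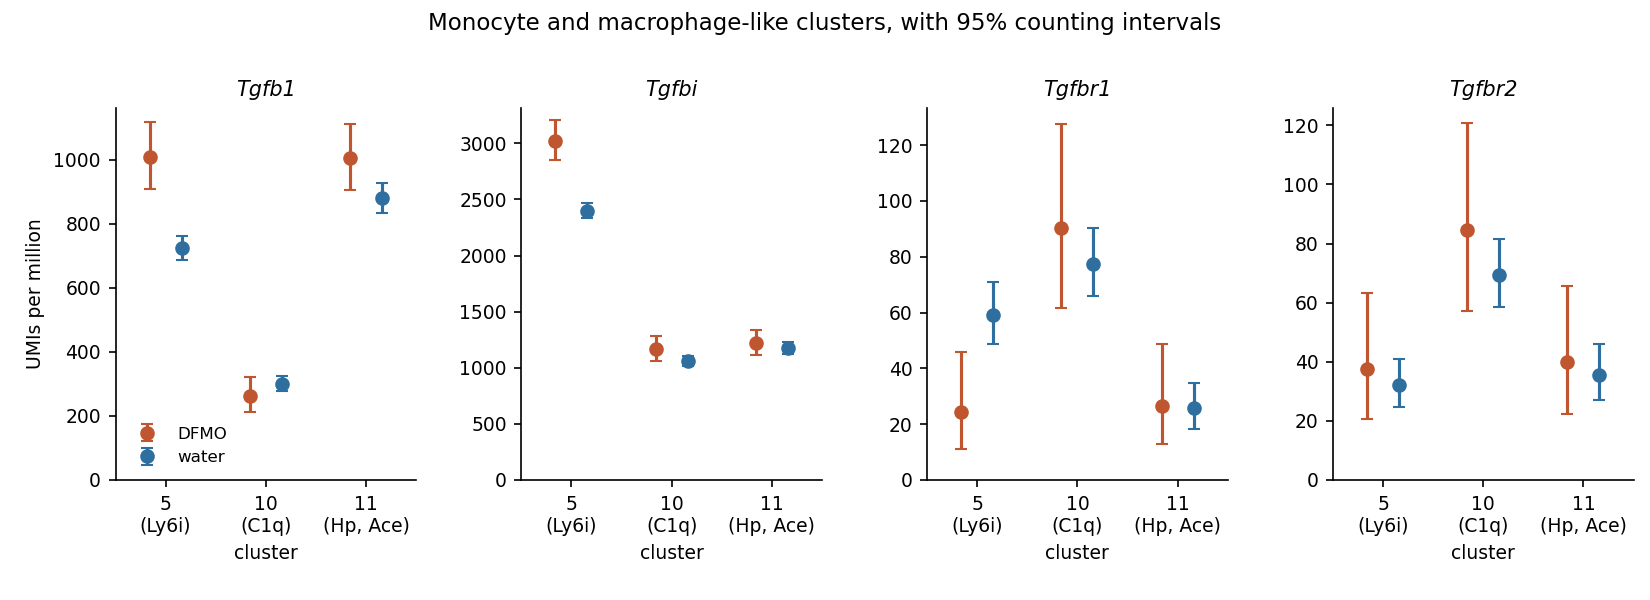
CPM of Tgfb1, Tgfbi, Tgfbr1 and Tgfbr2 (y axis, a separate scale per panel) in the 3 monocyte and macrophage-like clusters, with DFMO left of water and 95% counting intervals. The C1q cluster 10 has the lowest Tgfb1 and the highest Tgfbr1 and Tgfbr2, and cluster 5 the highest Tgfbi.

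The C1q cluster, lowest in Tgfb1, also held the most Tgfbr2, with 84.7 CPM in the DFMO library and 69.3 CPM in the water library, against 37.7 and 32.0 CPM in cluster 5 and 39.8 and 35.6 CPM in cluster 11. UMIs of both signalling receptors were found in the same cell in 8.95% of DFMO and 5.34% of water monocyte and macrophage-like cells, in 8.76% and 8.06% of fibroblast-like cells, and in 1.33% and 0.976% of CD8 T cell-like cells. These shares move with depth per cell, which was a median of 5642.5 DFMO and 4304 water UMIs in the monocytes and macrophages and 2594 and 2845 in the CD8 T cell-like cells.

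Tgfbr3 (chr5:107106570-107289629, minus strand), the co-receptor betaglycan, split the material into high and low classes. Fibroblast-like cells held 122 CPM in DFMO (244 UMIs) and 130 CPM in water (1525 UMIs), and Ptprc-low cells 63.5 and 58.5 CPM (618 and 1827 UMIs). Monocyte and macrophage-like cells had 1 DFMO and 6 water UMIs, and NK cell-like cells 0 and 4, the first of which allows up to 2.58 CPM. Among leukocytes the CD4 T cell-like cluster stood out, with 72.6 CPM in DFMO (80 UMIs, interval 57.6 to 90.4) and 1 UMI in water. DFMO B cell-like cells, with a median of 1759.5 UMIs against 1708 in that cluster, held 3 UMIs or 1.10 CPM. The log2 ratio was -0.09 in fibroblast-like cells (-0.29 to 0.11) and 0.12 in Ptprc-low cells (-0.02 to 0.25). In CD8 T cell-like cells it was 0.97 (-0.04 to 2.06) from 26 DFMO and 13 water UMIs, and -0.19 when called doublets were kept. In that setting the cluster led by Dapl1 no longer had the CD8 T cell-like name. On the same strand 3 annotated genes overlap Tgfbr3, and no overlapping gene is in the matrix.

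Smad7 (chr18:75367529-75395935, plus strand), which encodes the inhibitory SMAD, was highest in the CD4 T cell-like cluster, with 151 CPM in DFMO (166 UMIs) and 157 CPM in water (8 UMIs). Regulatory T cell-like cells held 74.6 CPM in DFMO and 59.0 CPM in water, and CD8 T cell-like cells 71.8 and 46.3 CPM. NK cell-like cells had 56.0 and 39.9 CPM, Ptprc-low cells 36.2 and 30.5 CPM, monocyte and macrophage-like cells 29.9 and 29.6 CPM, and fibroblast-like cells 21.4 and 15.3 CPM. B cell-like cells had 188 DFMO UMIs (68.7 CPM) and 1 UMI in water. All 3 T cell classes thus stood above the monocyte and macrophage-like, fibroblast-like and Ptprc-low classes in both libraries.

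The Smad7 ratio in CD8 T cell-like cells moved with 1 cluster. Over the whole class it was 0.63 (0.34 to 0.93), and with cluster 9 left out 0.08 (-0.29 to 0.44). That cluster held 124 CPM in DFMO (130 UMIs) and 66.7 CPM in water (5 UMIs), and 450 of its cells came from DFMO against 44 from water. In Ptprc-low cells the ratio was 0.25 (0.07 to 0.42), and in NK, regulatory T and fibroblast-like cells the values lay between 0.34 and 0.49 with intervals that included 0. In monocyte and macrophage-like cells it was 0.02 (-0.57 to 0.56).

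Smad3 (chr9:63646767-63757994, minus strand), the receptor-activated SMAD of this pathway, was read at low levels. Of the 6 large classes it was highest in fibroblast-like cells, with 29.9 CPM in DFMO and 22.9 CPM in water. NK cell-like cells held 18.1 and 12.3 CPM and Ptprc-low cells 13.7 and 11 CPM. CD8 T cell-like and monocyte and macrophage-like cells lay between 6.2 and 7.26 CPM in both libraries. The log2 ratio was 0.32 in Ptprc-low cells (0.02 to 0.61), and the intervals of the other classes with at least 30 UMIs included 0.

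Levels within the Ptprc-low class differed by cluster. Tgfbr2 was highest in cluster 3, led by Ero1l, Car9 and Ndrg1, with 93.4 CPM in DFMO (392 UMIs) and 64.9 CPM in water (752 UMIs). Cluster 1, led by genes of cell division such as Cenpf, Tpx2 and Foxm1, held 53.6 and 45.3 CPM, and cluster 13, with Hmga1 and Ybx1 among its leading genes, 9.28 and 14.2 CPM (5 and 22 UMIs). Tgfbr3 had the same order, with 88.4 DFMO and 77.9 water CPM in cluster 3, 48.0 and 50.1 CPM in cluster 1 and 13 and 11 CPM in cluster 13. Smad7 had 45.0 DFMO and 39.0 water CPM in cluster 3, 32.6 and 27.1 CPM in cluster 1, and 0 DFMO and 9 water UMIs in cluster 13. Tgfb1 was less uneven, with 102 DFMO and 73.7 water CPM in cluster 3, 90.8 and 83.5 CPM in cluster 1 and 74.3 and 66.4 CPM in cluster 13. The log2 ratio of Tgfb1 was 0.47 (0.30 to 0.64) in cluster 3 and 0.12 (-0.03 to 0.27) in cluster 1, and that of Tgfbr2 was 0.52 (0.34 to 0.70) and 0.24 (0.04 to 0.45).

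Besides cluster 9, the CD8 T cell-like class held clusters 6, 8 and 15. Tgfb1 stood between 295 and 333 CPM in DFMO and between 236 and 289 CPM in water over these clusters. Tgfbr2 was 121 DFMO and 88.2 water CPM in cluster 6, led by Gzmf, Pdcd1 and Lag3, 140 and 107 CPM in cluster 8, led by Klra6 and Gzmk, and 69.0 and 90.5 CPM in cluster 15. Its log2 ratio was 0.46 (0.09 to 0.83) in cluster 6, 0.38 (-0.09 to 0.84) in cluster 8 and -0.39 (-0.91 to 0.11) in cluster 15. Cluster 15, with 76 DFMO and 141 water cells, thus had no higher Tgfbr2 value in DFMO.

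Tgfbi (chr13:56609523-56639562, plus strand) marked the monocytes and macrophages. It reached 1812 CPM in DFMO (1998 UMIs) and 1558 CPM in water (8794 UMIs) there, with a UMI in 92.6% of DFMO and 90.2% of water cells. After thinning to 1000 UMIs the shares were 73.4% in DFMO and 68.1% in water. Conventional dendritic cell-like cells came next, with 275 CPM in DFMO and 214 CPM in water. B cell-like cells, taken as the level that free RNA gives, held 3 UMIs in DFMO (1.10 CPM, 0.138% of cells at a median of 1759.5 UMIs) and 0 in water, where 56 cells allow up to 35.4 CPM (3 UMIs), and the fibroblast-like cells held 0.499 CPM in DFMO and 1.53 CPM in water.

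Among the macrophage clusters Tgfbi was highest in cluster 5, with 3023 CPM in DFMO and 2400 CPM in water, against 1168 and 1059 CPM in the C1q cluster and 1224 and 1172 CPM in cluster 11. The log2 ratio over the class was 0.22 (0.15 to 0.29), and by cluster it was 0.33 (0.24 to 0.43) in cluster 5, 0.14 (-0.01 to 0.29) in the C1q cluster and 0.06 (-0.09 to 0.21) in cluster 11. With each cell weighted alike the class value was 0.08.

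Within regulatory T cell-like cells Tgfbi was at 1 UMI in DFMO and 34 UMIs in water, or 1.46 and 47.8 CPM, a log2 ratio of -5.03 (-10.37 to -2.45). The 34 UMIs came from 9 of the 198 water cells, and 29.4% of them from 1 cell. The 12 monocyte and macrophage markers summed to 4560 CPM in those 9 cells and to 315 CPM in the other 189. The 9 cells had a median of 8234 UMIs, against 2448 in the others. Over the class these markers summed to 290 CPM in DFMO and 770 CPM in water, with Csf1r, C1qa, Adgre1, Ms4a7 and Cd68 at 0 in DFMO and none at 0 in water. Their part in the Tgfbi value was not tested. CD8 T cell-like cells also had fewer Tgfbi UMIs in DFMO, 0 against 19 in water, with an upper limit of -2.25 on the log2 ratio. The same 12 markers summed to 1875 DFMO and 2244 water CPM there. They include Ly6c2, which was among the leading genes of a CD8 T cell-like cluster with at least 500 genes per cell. In this class the sum is thus no measure of monocyte RNA alone.

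Counted over the classes, few of the 9 genes lay past 2-fold (a log2 ratio of at least 1 in size, with at least 30 UMIs over both libraries). Regulatory T cell-like cells had 1 gene of 5 higher in DFMO (Tgfbr2) and 1 lower (Tgfbi), beside 4.66% of all genes higher and 2.55% lower in that class. Fibroblast-like cells had 0 of 8 higher and 1 lower (Tgfb2), beside 1.18% higher and 3.36% lower among all genes. Ptprc-low cells had 0 of 9 higher and 1 lower (Tgfb2), beside 1.36% higher and 0.985% lower. There was none among the 6 measured in CD8 T cell-like cells, where 3.68% of all genes were higher and 1.69% lower, none of 5 in NK cell-like cells (1.22% and 1.44%) and none of 7 in monocyte and macrophage-like cells (1.27% and 3.37%). The CD8 T cell-like cells without cluster 9 also had none of 5, beside 1.44% higher and 1.08% lower.

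Summed over all kept cells, which mixes level and cell class shares, 1 of the 9 genes was past 2-fold lower in DFMO and 0 higher, beside 3.72% of all genes lower and 10.1% higher. Smad7 had 50.5 CPM in DFMO and 28.4 CPM in water (log2 ratio 0.83), Tgfbr2 had 102 and 62.1 CPM (0.72) and Tgfb1 had 266 and 175 CPM (0.60). Tgfbi had 94.1 CPM in DFMO and 162 CPM in water (-0.78), Tgfb3 had 25.1 and 44.8 CPM (-0.83), Tgfbr3 had 42.9 and 59.3 CPM (-0.47) and Tgfb2 had 0.513 and 1.78 CPM (-1.80). Tgfbr1 (-0.07) and Smad3 (-0.00) were close to 0. With each class given its mean share of the libraries, the values were 0.42 for Smad7, 0.39 for Tgfbr2, 0.27 for Tgfb1, 0.18 for Tgfbi, -0.15 for Tgfb3, 0.06 for Tgfbr3 and -1.10 for Tgfb2. Tgfbi and Tgfbr3 were thus lower in DFMO over all cells and not lower at equal class shares. In the sum over named leukocytes alone, a setting added after the data were seen, Tgfb1 had a ratio of -0.05 and Tgfbr2 of 1.14.

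**Figure D5:**
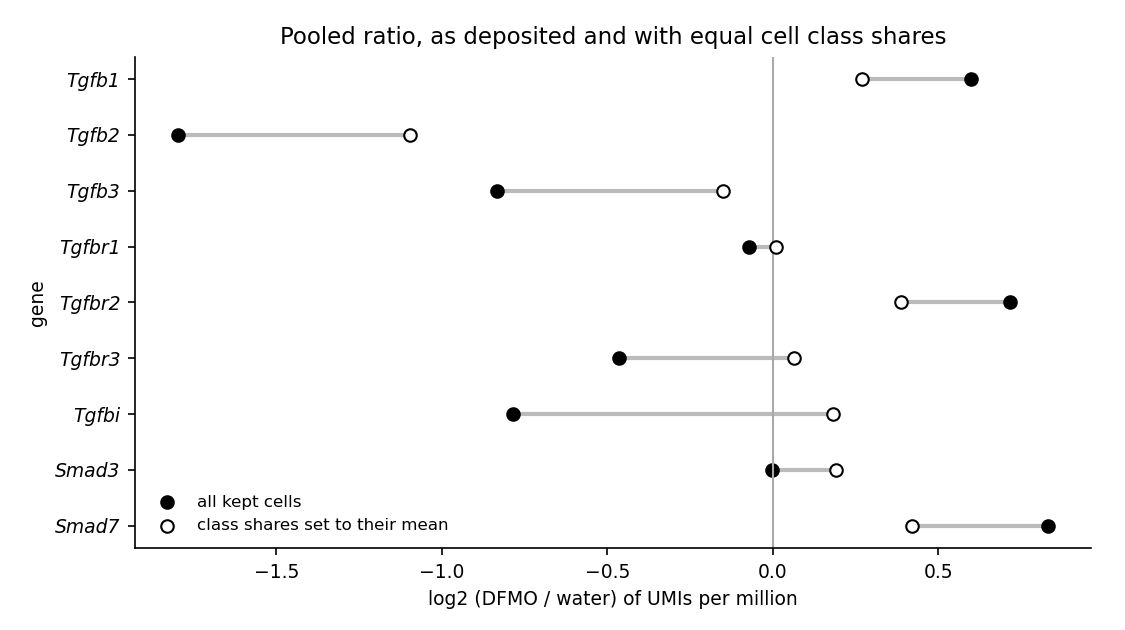
Log2 ratio of DFMO over water (x axis) for each gene over all kept cells (filled) and with each cell class given the mean of its 2 shares (open). Tgfbi is at -0.78 over all kept cells and at 0.18 with equal class shares, and Smad7, Tgfbr2 and Tgfb1 stay above 0.

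Of a list of 70 further pathway genes, 68 were in the matrix. In fibroblast-like cells 58 had at least 30 UMIs, and 8 of them were past 2-fold lower in DFMO and 0 higher, beside 3.36% of all genes lower and 1.18% higher, with a list median of -0.09 beside 0.02 over all genes. Among them were the matrix genes Col1a2 (1.5 DFMO and 28.4 water CPM), Bgn, Postn and Mmp2, the transcriptional inhibitor Id3 (137 and 316 CPM), and Smad6 and Acvr1b, whose intervals included 0. The log2 ratio was -4.25 for Col1a2 (-6.53 to -2.69), -1.99 for Bgn (-2.36 to -1.64), -1.10 for Postn (-1.30 to -0.90) and -1.05 for Mmp2 (-1.30 to -0.81). Col3a1 and Fn1, the collagen and fibronectin genes with the highest counts, had 6774 and 3809 CPM in DFMO and 7573 and 2831 CPM in water and lay within 2-fold. The same class also held the lower Tgfb3 (-0.43, with 88.9% of genes at least as high), and a link between Tgfb3 and the matrix genes was not tested. In Ptprc-low cells 59 list genes were measured and 0 lay past 2-fold in either direction, beside 1.36% of all genes higher and 0.985% lower. The list median there was 0.13 beside 0.05 over all genes.

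Of 17 list genes that hold or release the ligand, 1 lay past 2-fold in the 6 large classes. It was Mmp2, lower in fibroblast-like cells, where 3.36% of all genes were lower and 1.18% higher. A further 4 were picked after their values were seen. Ltbp3 and Ltbp4, which encode latent TGF-β binding proteins, stood at 147 and 138 CPM in DFMO and at 173 and 178 CPM in water fibroblast-like cells. Nrros, which anchors latent TGF-β on macrophages and microglia, reached 233 CPM in DFMO and 207 CPM in water monocyte and macrophage-like cells. Lrrc32 (GARP), its counterpart on regulatory T cells, had 61.4 CPM in DFMO and 30.9 CPM in water regulatory T cell-like cells, and at most 2.12 CPM in the other large classes of either library. Lrrc32 had fewer than 100 UMIs in each library over all kept cells (64 DFMO and 70 water).

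In regulatory T cell-like cells 23 list genes had at least 30 UMIs, 3 past 2-fold higher and 2 lower, beside 4.66% of all genes higher and 2.55% lower, with a median of -0.08 beside 0.10 over all genes. The higher ones were Id3 (189 DFMO and 4.22 water CPM, from 129 and 3 UMIs, a log2 ratio of 5.48 with an interval of 3.90 to 7.78), Smad2 (57.0 and 26.7 CPM) and Itgae, the CD103 integrin of tissue T cells (105 and 49.2 CPM). Id2 (310 and 668 CPM) and the cell cycle inhibitor Cdkn1a (54.1 and 164 CPM) were lower. In CD8 T cell-like cells 34 list genes were measured, 4 higher and 6 lower past 2-fold, beside 3.68% of all genes higher and 1.69% lower. The higher ones were Id3 (169 DFMO and 47.8 water CPM), Itgae (36.6 and 8.12 CPM), Eng and Smurf2, and the lower ones were Cdkn1a (23.0 and 54.4 CPM), Zeb2, Tsc22d1 and the matrix genes Dcn, Col3a1 and Fn1. The 8 fibroblast markers summed to 9.16 DFMO and 22.2 water CPM there, with Col1a1, Col1a2, Lum, Pdgfra and Postn at 0 in DFMO and Lum at 0 in water, and their part was not tested. Dcn (3.55 DFMO and 9.32 water CPM) and Col3a1 (5.32 and 11.1 CPM) are themselves among these markers. The sum is thus no separate measure of fibroblast RNA for these genes. Without cluster 9 the counts were 1 higher and 4 lower of 33, beside 1.44% of all genes higher and 1.08% lower. Id3 was the one that stayed higher, at 106 DFMO and 41.8 water CPM.

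NK cell-like cells had 30 list genes measured, 0 higher and 2 lower (Col3a1 and Fn1), beside 1.22% of all genes higher and 1.44% lower. Monocyte and macrophage-like cells had 43, with 0 higher and 2 lower (Dcn and Col3a1), beside 1.27% of all genes higher and 3.37% lower. The 8 fibroblast markers summed to 57.1 CPM in DFMO and 181 CPM in water monocyte and macrophage-like cells, with Col1a1, Col1a2, Lum and Pdgfra at 0 in DFMO and Col1a2 and Lum at 0 in water, and their part was not tested. Dcn and Col3a1 are among these markers, so here too the sum is no separate measure for them. Over all kept cells 66 list genes were measured, 2 past 2-fold higher (Lrrc32 and Itgb3) and 7 lower, among them Bgn, Col1a1, Col1a2 and Postn, beside 10.1% of all genes higher and 3.72% lower. At equal class shares 3 were lower, and the share of all genes lower in that setting is not given here.

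Genes with the most similar pattern were sought over 21 profiles (log2 CPM by library, from 11 classes) among 12521 genes, by Pearson's r, as a description without a test. The profiles share libraries and differ in depth. Nearest to Tgfbi were Fcgr1, an Fc receptor gene of monocytes (r = 0.98), Cebpa (0.97) and Csf1r (0.96). Nearest to Tgfb2 were Cilp, Klhl29 and Prelp (0.97 to 0.98), and to Tgfb3 Steap3, Ubd and Hspg2 (0.94 to 0.95). Nearest to Tgfb1 were Cd72, Fam49b and Sema4d (0.89 each). Tgfbr1 had the lowest best match, BC005537 with 0.83. Among the 9 genes themselves the highest pair was Tgfb2 with Tgfb3 (0.78), followed by Tgfbr2 with Smad3 (0.72), and the lowest was Tgfb1 with Tgfb2 (-0.62).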

How the data were processed

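Per the file headers and the submitters' processing notes (Cell Ranger 3.02, Scanpy 1.4.4, mm10), the deposited table of 10720 cells holds UMI counts that were not normalized, and a second file gives each cell's group. Cells with at least 200 genes were kept, and doublets were removed per library with Scrublet in scanpy 1.11.5 (1.14% of DFMO and 1.55% of water cells). The thresholds caught 26.7% (DFMO) and 35.0% (water) of simulated doublets, so some will have stayed. Clustering used 2000 variable genes without receptor segments and without the 9 genes, 30 components, 15 neighbours and Leiden resolution 1.0 (21 clusters). Clusters were named from marker lists by a rule set after the clusters were seen, which needed at least 3 markers and 0.5 of a list. Counts were summed per class and library and scaled to 1000000 UMIs of the class (CPM). Intervals are exact (Poisson for levels, Clopper-Pearson for shares, conditional binomial for ratios). All 9 genes were described in every class, and the rule let list genes past 2-fold be named. Those named within 2-fold (Ltbp3, Ltbp4, Nrros, Lrrc32, Col3a1, Fn1), and Ptprc, were chosen after their values were seen. The ratio was tested on simulated Poisson counts drawn from the pooled levels, without variation between cells, mice or libraries. There 99.4% of genes changed by 4 times in regulatory T cell-like cells were found past 2-fold, and 1.14% of the unchanged among 5627 genes. In monocyte and macrophage-like cells the values were 97.0% and 2.59%. These are no error rates for a comparison of 1 library with 1 library. TMM factors came from edgeR 4.0.16. Positions are from GENCODE M21 on mm10. The members and lists were chosen with earlier results of these data known.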

Additional observations from a re-analysis of the deposited data

Results flagged for a closer look

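The log2 ratio of Tgfbi ran in opposite directions in 2 classes. It was 0.22 in monocyte and macrophage-like cells, with 1998 DFMO and 8794 water UMIs, and -5.03 in regulatory T cell-like cells, with 1 DFMO and 34 water UMIs. The 34 UMIs came from 9 water cells, in which the monocyte and macrophage markers summed to 4560 CPM, against 315 CPM in the other 189. The value of -5.03 thus rests on few cells, and the part of those markers in it was not tested. CD8 T cell-like cells had 0 DFMO and 19 water UMIs, and fibroblast-like cells 1 and 18. The difference between the classes was not tested.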

How the results depend on the processing

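No paired analysis was possible because DFMO and water have 1 library each. No setting run turned round the sign of a ratio of the 9 genes past 2-fold. Ratios within 2-fold could change sign, as that of Tgfbr2 in monocyte and macrophage-like cells did after thinning. Thinning moved 20 of 42 ratios of the 9 genes outside the interval of the main setting. Weighting each cell alike moved 14 of 49, TMM library sizes 1 of 49 and doublets kept 3 of 49. Among named leukocytes 7 of 8 lay outside. The counts of the 9 genes past 2-fold rest on few UMIs and moved with the processing, and the cause was not tested. In regulatory T cell-like cells the gene higher in DFMO (1, Tgfbr2) became 0 with doublets kept, with at least 500 genes per cell, at Leiden resolution 2.0, with TMM library sizes, with each cell weighted alike, after thinning to 1000 UMIs and with at least 100 UMIs required, and the 1 lower gene (Tgfbi) became 0 after thinning and with at least 100 UMIs. With each cell weighted alike, monocyte and macrophage-like cells had 1 gene higher (Tgfb3), and all kept cells had 2 higher and 3 lower. Resolution 2.0 gave 1 lower in monocyte and macrophage-like and 0 lower in fibroblast-like cells, and doublets kept gave 2 lower in Ptprc-low cells. Thinning gave 1 higher in NK cell-like cells (Smad7), 2 lower in monocyte and macrophage-like cells (Tgfbr2 and Smad7), 0 lower in Ptprc-low cells, and 1 higher and 2 lower in all kept cells. A minimum of 10 UMIs gave 1 lower in CD8 T cell-like, 1 lower in NK cell-like and 2 lower in fibroblast-like cells, and one of 100 UMIs gave 0 lower in fibroblast-like and Ptprc-low cells. For all kept cells, settings added after the data were seen gave 3 higher among named leukocytes, and 1 higher and 0 lower there without B cells and clusters 4 and 9. Outside these counts, thinning left a Tgfbr2 ratio of 0.07 in NK cell-like and in Ptprc-low cells. The Tgfbr3 ratio in CD8 T cell-like cells was -0.19 with doublets kept, against 0.97 as reported. Pathway list counts moved as well. Over all kept cells 33 genes were lower with each cell weighted alike and 28 after thinning, against 7 as reported. Among named leukocytes it was 22, and at equal class shares 3. Except for leaving out cluster 9, shares of all genes past 2-fold in these other settings are not given here. These counts thus have no background beside them. In CD8 T cell-like cells 1 was higher with doublets kept or at least 500 genes, against 4. In both of these settings the cluster led by Dapl1 was named other T cell-like and left the CD8 class (449 DFMO and 44 water cells with doublets kept, 447 and 43 with at least 500 genes). As cluster 9 in the main clustering it had 3 of 6 CD8 and 4 of 6 CD4 T cell markers. Leaving out cluster 9 also gave 1 higher. In regulatory T cell-like cells 1 was higher under TMM or at least 500 genes, against 3. Under TMM the median of all genes in regulatory T cell-like cells stood at -0.00, against 0.10 as reported. Low counts limit Tgfb2, Tgfbr1 and Smad3 most.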
